A study of Homo sapiens with 24 samples.

Results

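The genes described here are 10 genes of NF-kB signalling and its inflammatory output: the chemokines CXCL1, CXCL2, CXCL3 and CXCL8, the adhesion molecule ICAM1, the cytokine IL32, the secreted lipocalin LCN2, and the feedback regulators NFKBIA, TNFAIP3 and BIRC3. They were chosen by name from 60675 gene IDs, with earlier results of these data known. All 10 are among the 20668 genes that passed a filter on low counts. ICAM1, IL32 and LCN2 were picked because they were seen to differ in these libraries, so their values are given as a description with no test. The other 7 were tested within a fit over all 20668 genes.

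NF-kB is a family of transcription factors built from RELA, RELB, REL, NFKB1 and NFKB2 subunits. In resting cells inhibitors such as NFKBIA (IκBα) hold the factor in the cytoplasm, and signals from cytokine receptors, from Toll-like receptors or from DNA damage lead to loss of the inhibitor and entry of the factor into the nucleus. Its targets include chemokines that attract neutrophils through the receptors CXCR1 and CXCR2, and also its own inhibitors, so the pathway limits itself. Colorectal cancer cells can make these chemokines themselves.

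RNA came from HCT116, a human colorectal carcinoma line, in 3 versions labelled by p53 status as WT, Mutant and Null. Each line was given solvent, APR-246 at 20 uM, irradiation at 6 Gy, or the combination of APR-246 and irradiation, with 2 libraries in each of the 12 groups. APR-246 (eprenetapopt) is a prodrug of a thiol-reactive compound developed to restore the fold of mutant p53. The culture medium for all groups was McCoy 5A supplemented with 10% FBS, and harvest was 72 h after irradiation. Since 1 line stands for each p53 status, the effect of p53 and any other difference between these cell populations cannot be told apart. The labels number the libraries of a group but do not say that they came from separate cultures, so p-values measure only the spread between these samples.

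The libraries held 53184139 to 58058729 assigned reads, and a count of 3 reads corresponds to 0.0517 to 0.0564 CPM, the count scaled to the total of the library. The epithelial identity of the cells was checked with 9 epithelial markers, of which 8 exceeded 1 CPM in at least 1 library. Medians were 5032 CPM for KRT8, 121 for EPCAM and 44.0 for CDX2. Those of the intestinal markers MUC2 and VIL1 were only 0.482 and 0.108 CPM, and LGR5 reached at most 0.180 CPM. One library stood apart from its label: the first WT library labelled APR-246 had a summed level of 14 ATF4-programme genes of 3393 CPM. That lies in the range of the 6 solvent libraries (3360 to 4345 CPM), whereas the other 5 APR-246 libraries lay between 799 and 1659 CPM. Differences with APR-246 averaged over the lines are given with and without this library. In bulk RNA, fewer cells making a transcript and less of it per cell cannot be told apart.

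The chemokine genes lie near each other on chromosome 4, and the promoters of the set were read for the kappa-B motif, the DNA sequence that NF-kB binds. Promoters of all 10 genes were found in a RefSeq table (GRCh38.p14) that spans 250 bases before to 50 after each start. Below, 80 bases are printed for the chemokines, for LCN2 and for NFKBIA, the members whose levels carry the results; capitals mark matches to the kappa-B consensus or to GGNNTTTCC on either strand. The CXCL1 stretch is at chr4:73869274-73869353 (plus strand), CXCL2 at chr4:74099234-74099313 (minus), CXCL3 at chr4:74038729-74038808 (minus), CXCL8 at chr4:73740438-73740517 (plus), LCN2 at chr9:128149238-128149317 (plus) and NFKBIA at chr14:35404791-35404870 (minus).
CXCL1: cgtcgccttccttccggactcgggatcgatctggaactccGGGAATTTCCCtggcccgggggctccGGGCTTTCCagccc
CXCL2: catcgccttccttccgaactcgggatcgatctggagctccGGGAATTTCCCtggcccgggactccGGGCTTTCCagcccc
CXCL3: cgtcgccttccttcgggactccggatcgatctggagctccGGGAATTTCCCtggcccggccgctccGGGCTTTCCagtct
CXCL8: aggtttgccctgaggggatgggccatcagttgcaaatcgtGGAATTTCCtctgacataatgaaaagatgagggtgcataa
LCN2: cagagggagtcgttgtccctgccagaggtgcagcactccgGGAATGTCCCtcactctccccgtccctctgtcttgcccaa
NFKBIA: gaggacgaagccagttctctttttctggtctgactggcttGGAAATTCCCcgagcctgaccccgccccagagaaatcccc

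The CXCL1 and CXCL3 stretches were identical at 91.2% of bases, and CXCL1 and CXCL2 at 82.5%, with GGGAATTTCC and GGGCTTTCC in the same order in all 3. CXCL8 shared 30.0% of bases with CXCL1, and its match was GGAATTTCC, 91 bases before the start. The 10-letter GGGAATTTCC, read on both strands, was found in 4 of the 10 promoters (CXCL1, CXCL2, CXCL3 and NFKBIA) and in 0.145% of 35116 promoters of the same length. Its 9-letter core GGAATTTCC, which is contained in it, was found in 6 of 10 against 0.461%. Both forms were read from the CXCL1 promoter itself, so the CXCL1 match was fixed in advance. CXCL2 and CXCL3 resemble CXCL1 over this stretch, as given above. The shares for these forms are therefore no independent test of enrichment. The wider kappa-B consensus was found in 8 of 10 against 11.3%. GGNNTTTCC, a form chosen after the sequences were read, was found in 9 of 10 against 6.26%. Members were counted by gene over 11 promoter windows, and the second window of IL32 held no match. The percentages count windows. The genes were taken for their place in NF-kB signalling and its output, so these shares are no independent test either. A match describes these letters only and is not evidence of a bound site.

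CXCL1 (also called GROα) attracts neutrophils, and its gene spans chr4:73869393-73871242 in GENCODE 29 (GRCh38). In WT it was at 2.60 and 3.14 CPM in solvent, 3.34 and 0.331 with APR-246, 1.56 and 1.43 after irradiation and 1.56 and 1.85 with the combination. In Mutant the corresponding levels were 3.88 and 2.23, 1.20 and 0.436, 2.14 and 2.01 and 3.15 and 1.89 CPM. In Null they were 2.34 and 1.77, 0.242 and 0.466, 1.82 and 0.820 and 0.894 and 0.737 CPM. All APR-246 libraries of Mutant and Null lay below both of their solvent libraries, while in WT the library that stood apart was above both and the other far below. CXCL1 fell with APR-246 on average over the 3 lines (log2 difference -1.40 ± 0.26 SE, n = 6 libraries against 6, limma adjusted p = 0.00997), which is 2.63-fold lower. Without the WT library that stood apart, which held the highest CXCL1 level of the APR-246 libraries, the difference was -1.72 ± 0.18. The call held when any 1 of the 12 libraries was left out, with an adjusted p of at most 0.0491.

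CXCL8 (interleukin 8), a neutrophil chemokine and angiogenic factor, had in WT 2.83 and 3.09 CPM in solvent, 2.89 and 0.220 with APR-246, 1.55 and 1.24 after irradiation and 1.38 and 2.11 with the combination. In Mutant it was at 4.61 and 2.73, 1.23 and 0.946, 2.35 and 2.96 and 5.20 and 2.27 CPM in the same order. In Null it was at 2.81 and 1.56, 0.554 and 0.538, 1.71 and 2.10 and 1.97 and 1.03 CPM. The Mutant and Null libraries with APR-246 were the lowest of their lines, and the Mutant libraries with the combination spanned the solvent level. CXCL8 fell with APR-246 over the 3 lines (-1.34 ± 0.27, limma adjusted p = 0.0146), a 2.54-fold lower level. The difference was -1.68 ± 0.20 without the WT library that stood apart. The call was lost when the second WT solvent, Mutant APR-246 or Null APR-246 library was left out (highest adjusted p = 0.0619).

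CXCL2 and CXCL3 (GROβ and GROγ) are close copies of CXCL1 and bind the same receptor, CXCR2, so reads may be split among the 3 genes in a way that the deposited values do not show. In solvent CXCL2 was at 1.91 and 1.22 CPM (WT), 1.97 and 0.865 CPM (Mutant) and 2.61 and 0.486 CPM (Null), and with APR-246 at 1.43 and 0.404, 0.616 and 0.273 and 0.0692 and 0.430 CPM in the same order of lines. In solvent CXCL3 was at 2.45 and 1.97 CPM (WT), 1.61 and 1.09 CPM (Mutant) and 1.71 and 0.885 CPM (Null), and with APR-246 at 1.77 and 0.422, 0.774 and 0.800 and 0.104 and 0.538 CPM. Per kilobase of exon these were the least abundant chemokines of the set, at medians of 0.451 CPM for CXCL2 and 0.478 CPM for CXCL3, and a library held as few as 4 reads of CXCL2 and 6 of CXCL3. Each APR-246 library was below the solvent mean of its line for both genes. CXCL2 fell with APR-246 by 1.00 ± 0.23 on the log2 scale (limma adjusted p = 0.0243) and CXCL3 by 0.91 ± 0.19 (limma adjusted p = 0.0173). Without the WT library that stood apart these differences were -1.15 ± 0.23 and -1.09 ± 0.17. The CXCL2 call was lost without any one of 7 of the 12 libraries, and the CXCL3 call without any one of 6. Both were also lost without TMM scaling (adjusted p = 0.0980 and 0.0520) and without the filter on low counts (adjusted p = 0.0635 and 0.0523), and CXCL3 with median centring (adjusted p = 0.0621).

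All 4 chemokines were thus called lower with APR-246 on average over the lines, and none of NFKBIA, TNFAIP3 and BIRC3 was called. Their mean CPM was also lower with APR-246 than in solvent. It was 53.3 against 56.6 for NFKBIA, 7.19 against 7.54 for TNFAIP3 and 1.98 against 2.93 for BIRC3. In total 4 of 7 tested members were called lower, where 1.96% of all 20668 genes were called lower, 1.19% higher and 3.15% in either direction. The members were chosen with earlier results of these data known, so this is not an unbiased comparison. The median log2 difference of the 7 was -0.91 and that of all genes -0.01. The edgeR and DESeq2 tests on recovered reads called the same 4, with larger folds, since adding 0.5 CPM understates the change of low genes (CXCL1 -1.84 by edgeR and -1.86 by DESeq2). Within a single line no member was called with APR-246 by limma, with 0% of genes called in WT, 0% in Mutant and 0.131% in Null. At an unadjusted p under 0.05, 3 of the 7 passed in WT, 3 in Mutant and 4 in Null. Of all 20668 genes, 557, 1516 and 1797 did so in the same order. For these comparisons edgeR called 0, and DESeq2 called 0 in WT, 0 in Mutant and 3 in Null. In Null DESeq2 called 451 of 16260 genes. With WT reduced to its second APR-246 library, the WT difference was -2.02 ± 0.35 for CXCL1 and -2.27 ± 0.38 for CXCL8. That library is then assumed to vary as the other groups do. The library left out held the highest CXCL1 and CXCL8 of the APR-246 libraries.

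**Figure D1:**
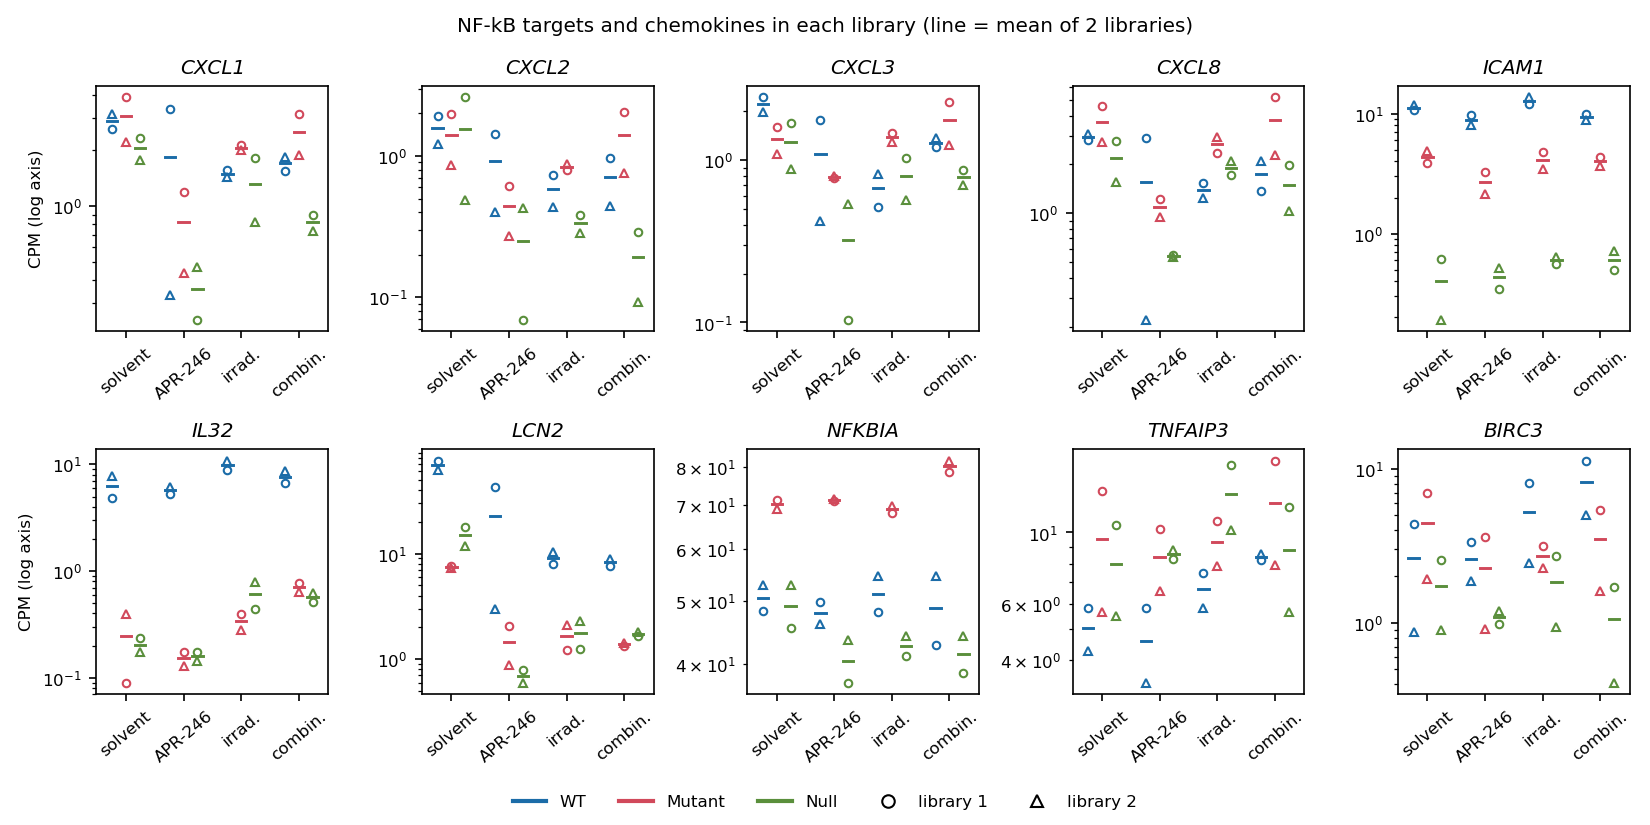
CPM (log axis) of the 10 genes in each of the 24 libraries, by treatment; colours are lines, circles and triangles the first and second library, and short bars the mean of 2. ICAM1 separates the 3 lines and IL32 separates WT from the other two, LCN2 is lower in treated than in solvent libraries within each line, and CXCL1 and CXCL8 are lowest with APR-246 in Mutant and Null.

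After irradiation alone, CXCL2 was the 1 chemokine called: it was at 0.736 and 0.432 CPM in WT, 0.801 and 0.881 CPM in Mutant and 0.384 and 0.285 CPM in Null. It fell by 0.82 ± 0.23 on the log2 scale against solvent over the 3 lines (limma adjusted p = 0.0269). Thus 1 of 7 members was called lower, where 6.13% of all genes were called lower and 6.84% higher. CXCL3 was at 0.515 and 0.827 CPM in WT, 1.48 and 1.30 CPM in Mutant and 1.03 and 0.570 CPM in Null. Its difference of -0.55 ± 0.19 (limma adjusted p = 0.0723), that of CXCL1 of -0.59 ± 0.26 (adjusted p = 0.147) and that of CXCL8 of -0.47 ± 0.27 (adjusted p = 0.279) did not pass. The CXCL2 call was lost without any one of 8 of the 12 libraries, without TMM scaling (adjusted p = 0.0940) and without the filter (adjusted p = 0.0624).

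With the combination, CXCL2 was at 0.972 and 0.445 CPM in WT, 2.06 and 0.752 CPM in Mutant and 0.292 and 0.0921 CPM in Null. It fell by 0.81 ± 0.23 on the log2 scale (limma adjusted p = 0.0265) and was again the 1 member called, where 6.29% of all genes were called lower and 7.63% higher. Its lowest level under the combination, 0.0921 CPM, was in Null, and the first Mutant library lay above both Mutant solvent libraries. CXCL3 was at 1.20 and 1.37 CPM in WT, 2.29 and 1.25 CPM in Mutant and 0.876 and 0.700 CPM in Null. CXCL1 stood at -0.71 ± 0.26 (limma adjusted p = 0.0857), CXCL3 at -0.35 ± 0.19 (adjusted p = 0.260) and CXCL8 at -0.47 ± 0.27 (adjusted p = 0.287). The CXCL2 call was lost without any one of 7 of the 12 libraries, without TMM scaling (adjusted p = 0.130) and without the filter (adjusted p = 0.0570). The 3 treatments were compared with the same solvent libraries, so their differences are not independent.

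Between the combination and APR-246 alone no chemokine was called. CXCL8 differed between the combination and APR-246 by 0.87 ± 0.27 on the log2 scale (limma adjusted p = 0.163), CXCL1 by 0.69 ± 0.26 (adjusted p = 0.282), CXCL3 by 0.56 ± 0.19 (adjusted p = 0.229) and CXCL2 by 0.19 ± 0.23 (adjusted p = 0.916). In that comparison 0 of 7 members were called, where 1.08% of all genes were called. An unadjusted p under 0.05 was found for 4 of the 7 and for 2327 of all 20668 genes. Without the WT library that stood apart, CXCL8 was at 1.20 ± 0.20, CXCL1 at 1.02 ± 0.18, CXCL3 at 0.73 ± 0.17 and CXCL2 at 0.34 ± 0.23. That library also held the highest CXCL1 and CXCL8 of the APR-246 libraries. Leaving it out removes the values nearest solvent and keeps a single WT library with APR-246. Between the combination and irradiation alone, CXCL1 differed by -0.11 ± 0.26 and CXCL8 by -0.01 ± 0.27. There 0 of 7 members were called, and 0% of all genes. None of the 7 had an unadjusted p under 0.05, where 1240 of all 20668 genes did.

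**Figure D2:**
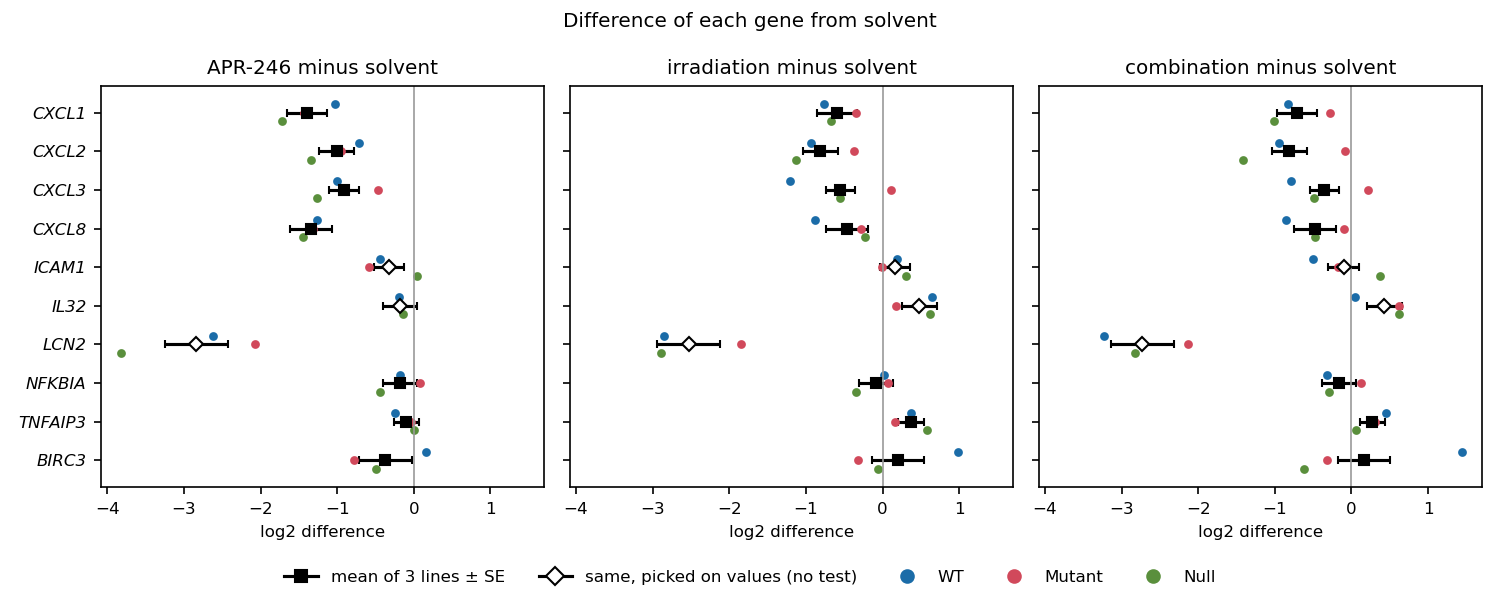
Log2 difference from solvent for each gene (axis in log2 units); black squares are the mean of the 3 lines with its standard error, open diamonds the same for the 3 genes described with no test, and coloured dots the single lines. CXCL1 is at -1.40 with APR-246, -0.59 after irradiation and -0.71 with the combination, and LCN2 is near -2.5 to -2.8 in all 3.

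LCN2 (lipocalin 2), which binds siderophores and so withholds iron from bacteria, had the widest range of the set, 0.591 to 76.1 CPM. In WT it was at 76.1 and 61.7 CPM in solvent, 42.2 and 2.96 with APR-246, 7.97 and 10.2 after irradiation and 7.67 and 8.82 with the combination. In Mutant it was at 7.70 and 7.34, 2.04 and 0.873, 1.21 and 2.11 and 1.33 and 1.43 CPM, and in Null at 18.0 and 11.8, 0.796 and 0.591, 1.26 and 2.32 and 1.64 and 1.82 CPM. In each line every treated library lay below both solvent libraries, although the WT library that stood apart, at 42.3 CPM, came near them. The mean difference over the 3 lines was -2.84 ± 0.41 on the log2 scale with APR-246, -2.53 ± 0.41 after irradiation and -2.73 ± 0.41 with the combination. Without that WT library the APR-246 difference was -3.39 ± 0.25. Among single lines, Null with APR-246 was at -3.82 ± 0.71 and Mutant after irradiation at -1.85 ± 0.71. With APR-246 in WT the difference was -4.28 ± 0.49 when the second WT library stood alone for that group.

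LCN2 levels also differed by line. In solvent, WT was above Null by 2.10 ± 0.71 on the log2 scale, and Mutant was below WT by a difference of -3.18 ± 0.71. Mutant and Null were closer, at -1.08 ± 0.71, and their ranges in solvent did not overlap. Averaged over the 4 treatments the Mutant minus Null difference was -0.21 ± 0.36.

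The summed level of the ATF4-programme genes, which respond to amino acid and protein-folding stress, moved with the same treatments. It was 3360 to 4345 CPM in the 6 solvent libraries, 859 to 1066 CPM after irradiation and 893 to 1143 CPM with the combination. With APR-246, 10 of 13 tested ATF4-programme genes were called lower and none higher, where 1.96% of all genes were called lower and 1.19% higher. Their median log2 difference was -1.82, and -2.32 without the WT library that stood apart. That library was set apart by these same genes, so the larger fall without it is no independent support. After irradiation 12 of the 13 were called lower, where 6.13% of all genes were, and with the combination 12, where 6.29% were. The mean log2 level of the 4 chemokines was 0.97 to 1.75 in solvent, 0.46 to 1.21 after irradiation, 0.30 to 1.57 with the combination, and -0.46 to 1.29 with APR-246. The WT APR-246 library at solvent ATF4 levels also held the highest chemokine and LCN2 levels of the APR-246 libraries. Among the 17 libraries with a low ATF4 sum, the chemokine mean was -0.46 to 0.38 with APR-246 and 0.30 to 1.57 with irradiation or the combination, and LCN2 was below its solvent level under all 3 treatments. The part of the ATF4 programme in the chemokine and LCN2 levels was not tested.

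**Figure D3:**
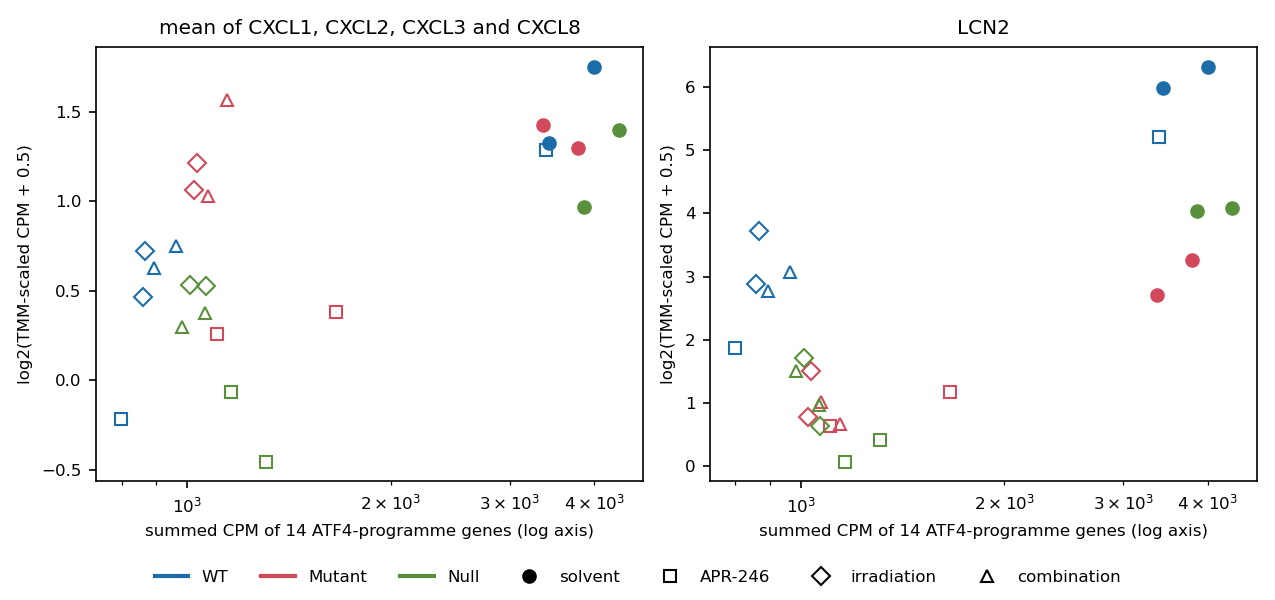
Mean log2 level of the 4 chemokines (left) and log2 level of LCN2 (right) against the summed CPM of 14 ATF4-programme genes (log axis), 1 point per library; colours are lines and shapes treatments, with solvent filled. The 6 solvent libraries and 1 WT APR-246 library lie at 3360 to 4345 CPM on the horizontal axis and the other 17 between 799 and 1659 CPM.

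ICAM1, an adhesion molecule that binds leukocyte integrins, was ordered by line. In WT it was at 10.6 and 11.9 CPM in solvent, 9.70 and 8.06 with APR-246, 11.99 and 13.7 after irradiation and 9.93 and 8.90 with the combination. In Mutant it was at 3.87 and 4.85, 3.25 and 2.15, 4.79 and 3.45 and 4.35 and 3.67 CPM, and in Null at 0.612 and 0.191, 0.346 and 0.520, 0.559 and 0.642 and 0.493 and 0.719 CPM. Every WT library was above every Mutant library, and every Mutant library above every Null library. In solvent, WT exceeded Null by 3.76 ± 0.35 on the log2 scale and Mutant exceeded Null by 2.41 ± 0.35. Averaged over the treatments these differences were 3.39 ± 0.17 and 2.05 ± 0.17. The treatments moved ICAM1 little by comparison: the mean difference from solvent was -0.33 ± 0.20 with APR-246, 0.16 ± 0.20 after irradiation and -0.10 ± 0.20 with the combination, and -0.32 ± 0.22 with APR-246 without the WT library that stood apart. Antisense genes overlap ICAM1, and the counting strand is not given in the sources used here.

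IL32, a cytokine that induces other inflammatory cytokines, was high in WT alone. In WT it was at 4.83 and 7.76 CPM in solvent, 5.32 and 6.21 with APR-246, 8.96 and 10.9 after irradiation and 6.68 and 8.71 with the combination. All 16 libraries of Mutant and Null lay between 0.0887 and 0.784 CPM, the lowest of them resting on 5 reads. WT exceeded Null by 3.25 ± 0.39 in solvent, and Mutant and Null differed by 0.05 ± 0.39. The difference from solvent over the lines was 0.48 ± 0.23 after irradiation, 0.43 ± 0.23 with the combination and -0.18 ± 0.23 with APR-246, or -0.10 ± 0.24 without the WT library that stood apart. IL32 is overlapped by RNU1-125P and AC108134.3, so part of its reads may come from these genes.

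NFKBIA, the inhibitor that NF-kB itself induces, was the most abundant member per length, at a median of 21.6 CPM per kilobase of exon over 24 libraries. LCN2 followed at 1.65, TNFAIP3 at 1.60 and CXCL1 at 1.38 CPM per kilobase, and IL32 was last at 0.177. NFKBIA was at 48.2 and 52.8 CPM in WT solvent, 71.3 and 69.2 in Mutant solvent and 45.4 and 52.8 in Null solvent. With APR-246 it was at 49.7 and 46.2, 71.2 and 71.5 and 37.4 and 43.6 CPM in WT, Mutant and Null. In unscaled CPM all 8 Mutant libraries, at 68.2 to 81.9 CPM, lay above all WT and Null libraries, whose highest was 54.7 CPM. On the TMM-scaled log2 scale of the tests the lines overlapped. Mutant ran from 5.81 to 6.46 there, while WT reached 6.10 and Null 6.16. No treatment difference was called: -0.18 ± 0.22 with APR-246 (limma adjusted p = 0.785), -0.09 ± 0.22 after irradiation (adjusted p = 0.824) and -0.16 ± 0.22 with the combination (adjusted p = 0.688). Without the WT library that stood apart the APR-246 value of NFKBIA was -0.15 ± 0.24.

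TNFAIP3 (A20), a ubiquitin-editing enzyme that shuts the pathway off, was at 5.84 and 4.27 CPM in WT solvent and 8.22 and 8.58 in WT with the combination. In Mutant it was at 13.4 and 5.68 CPM in solvent and 16.7 and 7.90 with the combination, and in Null at 10.5 and 5.48 and 12.02 and 5.64. The 2 libraries of a group spread as widely as the lines in solvent, where values ran from 4.27 to 13.4 CPM. The differences from solvent over the lines were -0.10 ± 0.17 with APR-246 (limma adjusted p = 0.866), 0.37 ± 0.17 after irradiation (adjusted p = 0.157) and 0.27 ± 0.17 with the combination (adjusted p = 0.317), and with APR-246 -0.17 ± 0.18 without the WT library that stood apart. An antisense gene overlaps TNFAIP3.

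BIRC3 (cIAP2), a ubiquitin ligase that protects cells from death at the TNF receptor, was at 4.36 and 0.877 CPM in WT solvent, 3.32 and 1.87 with APR-246, 8.04 and 2.44 after irradiation and 11.3 and 5.04 with the combination. In Mutant it was at 6.97 and 1.92, 3.61 and 0.909, 3.17 and 2.25 and 5.38 and 1.61 CPM, and in Null at 2.57 and 0.902, 0.986 and 1.20, 2.72 and 0.944 and 1.72 and 0.405 CPM. Both WT libraries with the combination exceeded both WT solvent libraries. That difference was 1.44 ± 0.59 on the log2 scale in WT (limma adjusted p = 0.274), -0.32 ± 0.59 in Mutant and -0.62 ± 0.59 in Null. The WT response exceeded the Null response by 2.06 ± 0.84 (limma adjusted p = 0.937), so a difference between the lines was not called. Of the 7 members, 0 were called in any of the 6 tests of a different response between lines, where at most 0.029% of genes were.

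Within single lines, irradiation and the combination called 0 of the 7 members by limma in each of 6 comparisons. The share of all genes called there was 1.56% in WT, 0.0774% in Mutant and 0.677% in Null after irradiation, and 2.23%, 0.348% and 1.95% with the combination. At an unadjusted p under 0.05, irradiation had 2, 0 and 1 members in WT, Mutant and Null, and the combination 3, 0 and 2. Of all 20668 genes, 2526, 2711 and 2437 passed after irradiation and 2843, 2439 and 3120 with the combination. edgeR called 0 in all 6, and DESeq2 called 1 with the combination in Null and 0 in the other 5. With the combination in Null DESeq2 called 1124 of 17462 genes. Fits with the library number as a block called members in some single lines, with APR-246 in Null among them; their counts are given with the alternatives.

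Between the untreated lines, none of the 7 tested members was called. The share of all genes called was 0.992% for WT against Null, 2.49% for Mutant against Null and 0.629% for Mutant against WT. At an unadjusted p under 0.05 there was 1 member for WT against Null and 1 for Mutant against WT, TNFAIP3 in both. There were 0 for Mutant against Null. Of all 20668 genes, 1511, 1200 and 2380 passed in the same order. A comparison of the lines over all 4 treatments was added after these values were seen. In it TNFAIP3 was lower in WT than in Null (-0.67 ± 0.14, limma adjusted p = 0.00523) and higher in Mutant than in WT (0.65 ± 0.14, adjusted p = 0.00768). These TNFAIP3 calls held without any 1 of the 16 libraries. Without the WT APR-246 library that stood apart, the Mutant minus WT difference of CXCL8 was 0.74 ± 0.17. BIRC3 was higher in WT than in Null (1.17 ± 0.30, limma adjusted p = 0.0158) and NFKBIA was higher in Mutant than in Null (0.68 ± 0.19, adjusted p = 0.0277). The BIRC3 call was lost without any one of 3 of the 16 libraries (highest adjusted p = 0.0511) and the NFKBIA call without any one of 10 (highest 0.0785). Of all genes, 6.01% were called higher and 5.74% lower in WT than in Null, 5.92% higher in Mutant than in Null and 4.59% higher in Mutant than in WT. Without TMM scaling both TNFAIP3 calls (adjusted p = 0.177 and 0.158) and the BIRC3 call (adjusted p = 0.0725) were lost, and the NFKBIA call was lost with median centring (adjusted p = 0.155) and without the filter (adjusted p = 0.0639).

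On the TMM-scaled log2 scale of the tests, BIRC3 and NFKBIA also differed between the numbered libraries of a group, in opposite directions. BIRC3 was higher in the first library than in the second in 11 of 12 groups (median log2 difference 0.98). NFKBIA was lower in the first in 12 of 12 (median -0.55). In unscaled CPM, NFKBIA was instead higher in the first library in WT with APR-246 (49.7 against 46.2) and in Mutant solvent (71.3 against 69.2). TMM factors ran from 0.741 to 1.28, and their part in these library differences was not tested. The GC slope of a library, the change of log2 level per percent of exon GC across genes, was lower in the first library in 11 of the 12 groups. BIRC3 has 37.4% GC in its exons and NFKBIA 56.0%. After TMM scaling CXCL1, at 49.3% GC, was higher in the first library in 5 of 12 groups. The labels do not say whether the numbers mark a batch. The part of this slope in the differences between groups was not tested beyond the fits with it as a term, whose counts are given with the alternatives.

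**Figure D4:**
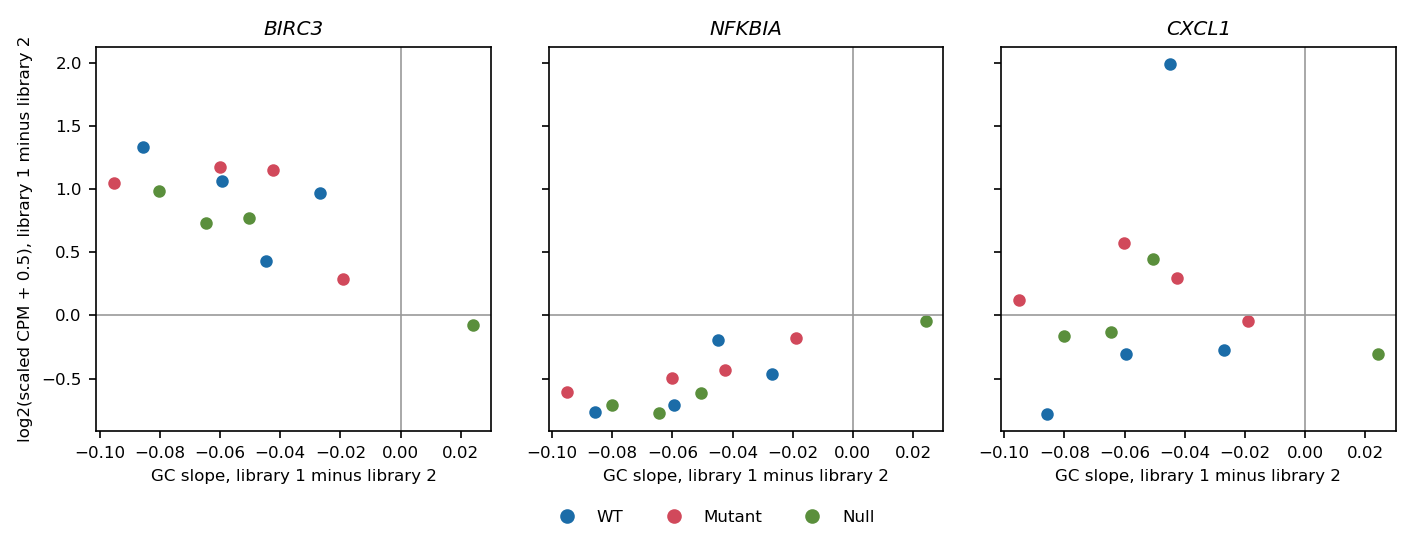
Difference between the first and second library of each group in TMM-scaled log2 level (vertical) against their difference in GC slope (horizontal). Each point is 1 group, coloured by line. BIRC3 points lie above 0 in 11 of 12 groups and NFKBIA points below 0 in 12 of 12, while CXCL1 shows both signs.

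The rest of the pathway was followed in 6 lists of 105 genes, of which 89 were tested. The 5 subunits were all tested and 0 were called in any of the 3 treatment comparisons over the lines. Per kilobase of exon NFKB2 was the most abundant subunit, at a mean of 83.0 CPM, followed by RELA at 29.8, RELB at 25.2, NFKB1 at 6.29 and REL at 0.117. With APR-246, 1 of the 89 was called higher and 4 lower, where 1.19% of all genes were called higher and 1.96% lower. After irradiation 8 rose and 4 fell, where 6.84% of all genes were called higher and 6.13% lower. With the combination 7 rose and 5 fell, where 7.63% were called higher and 6.29% lower, so in these comparisons the shares of the list were near those of all genes. Without the WT library that stood apart, 2 of 93 were called higher and 5 lower with APR-246, where 2.94% of all genes were called higher and 3.47% lower (the filter then keeps more genes). The median log2 difference over the list was -0.11 with APR-246, -0.01 after irradiation and -0.09 with the combination, beside -0.01, -0.01 and 0.01 for all genes.

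Among the adaptors, RBCK1 (HOIL-1), a subunit of the linear ubiquitin ligase LUBAC, had the largest difference from solvent in the lists when averaged over the 3 lines. It was at 1262 and 1721 CPM in WT solvent and 119 and 151 CPM in WT with the combination, and the WT library that stood apart held 1202 CPM against 146 CPM in its partner. RBCK1 fell by 2.14 ± 0.41 on the log2 scale with APR-246 (limma adjusted p = 0.0107), by 2.71 ± 0.41 after irradiation (adjusted p = 0.000662) and by 2.97 ± 0.41 with the combination (adjusted p = 0.000310). The APR-246 difference was -2.60 ± 0.32 without that WT library. MYD88, the adaptor of Toll-like and interleukin 1 receptors, rose by 0.76 ± 0.21 after irradiation (limma adjusted p = 0.0242) and by 0.85 ± 0.21 with the combination (adjusted p = 0.0127). TRAF2, an adaptor of TNF receptors, rose after irradiation (0.93 ± 0.25) and with the combination (0.87 ± 0.25).

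Among the other targets, PLAU (urokinase) fell under all 3 treatments, at -1.49 ± 0.25 with APR-246, -1.24 ± 0.25 after irradiation and -1.55 ± 0.25 with the combination. It was at 277 and 197 CPM in WT solvent and 236 and 55.2 CPM in WT with APR-246, again with the high value in the library that stood apart. GADD45B, a stress-response gene, fell by 0.95 ± 0.20 with APR-246, and the immediate early gene IER2 fell by 0.82 ± 0.17. Without that library the APR-246 difference was -1.79 ± 0.20 for PLAU, -1.13 ± 0.19 for GADD45B and -0.94 ± 0.17 for IER2. The chemokine CCL5 (RANTES) moved the other way and rose after irradiation (0.86 ± 0.16, limma adjusted p = 0.00248) and with the combination (0.82 ± 0.16, adjusted p = 0.00275). CCL5 was at 0.108 and 0.0730 CPM in WT solvent, near the 3-read floor, and at 1.18 and 0.927 CPM in WT with the combination. CD83, a surface protein of activated immune cells, rose after irradiation (0.73 ± 0.13) and with the combination (0.84 ± 0.13).

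Among receptors, TLR3, a sensor of double-stranded RNA, rose with the combination (0.92 ± 0.165, limma adjusted p = 0.00172). It stood at 0.324 and 0.110 CPM in WT solvent and 3.23 and 2.98 CPM in WT with the combination, while Null stayed at or below 0.255 CPM. TNFRSF1A, the main TNF receptor, fell with the combination (-1.01 ± 0.24, adjusted p = 0.0108). TNFRSF11A (RANK) rose with APR-246 (0.75 ± 0.16, or 0.83 ± 0.17 without the WT library that stood apart) and after irradiation (0.53 ± 0.16). Of the ligands, IL1B, IL6 and TNFSF15 did not pass the filter. TNF, which did, was called higher with the combination (0.245 ± 0.071, limma adjusted p = 0.0317) but reached at most 0.328 CPM. Of the inhibitors, NFKBID rose after irradiation (0.67 ± 0.21, limma adjusted p = 0.0430) and with the combination (0.73 ± 0.21, adjusted p = 0.0262). SOD2 could not be matched to 1 gene ID and is not analysed here, and 15 listed genes did not pass the filter, among them CXCL5, CXCL6, CXCL10, CCL2 and VCAM1.

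Markers of blood cells moved with treatment. Of 8 blood cell markers, 3 exceeded 1 CPM in any library and 4 were tested, of which 4 were called higher after irradiation, 3 with the combination and 0 with APR-246. Their summed level was 0.729 to 1.92 CPM in solvent, 1.34 to 2.71 CPM with APR-246, 1.62 to 4.96 CPM after irradiation and 3.02 to 4.41 CPM with the combination. The defining leukocyte gene PTPRC was at 0 in 13 of 24 libraries and reached 0.185 CPM, and CD3E was at 0 in 17. Fibroblast markers summed to 11.8 to 69.0 CPM, nearly all of it the collagen gene COL1A1 at 11.5 to 67.9 CPM (median 34.6), with LUM at 0 in 22 libraries and DCN in 19, and endothelial markers to 0.964 to 4.12 CPM. Their part in the levels of the chemokines, CCL5 and CD83 was not tested.

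By Pearson r on the log2 scale over the 24 libraries and 10732 genes, the gene with the pattern most like CXCL1 was IRAK2, a kinase of interleukin 1 receptor signalling (r = 0.82), and IRAK2 was also first for CXCL3 (0.80). JUN, an AP-1 subunit, was first for CXCL8 (0.80) and LAMP3 for CXCL2 (0.81). PLAU was nearest to LCN2 (0.90), KRT23 to ICAM1 (0.95), HAS3 to IL32 (0.93), SP100 to BIRC3 (0.91), ADGRE5 to NFKBIA (0.93) and TPST1 to TNFAIP3 (0.83). The 24 libraries share lines, treatments and library numbers, so these values describe likeness only.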

How the data were processed

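RNA-seq libraries of 3 HCT116 lines under 4 treatments (24 libraries, 12 groups of 2) were analysed; groups follow the labels. The authors checked reads with FastQC, and STAR and featureCounts of Subread are named with GRCh38.p13, per the submitters' processing notes; versions, annotation and counting strand are not given in the sources used here. The deposited values are CPM per gene ID, and they returned whole reads for all values within 0.05 of a read; mates of a pair seem to be counted singly.

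The low-count filter was filterByExpr of edgeR (count minimum 10). The main test was limma-trend with robust variance (limma 3.58.1, edgeR 4.0.16, R 4.3.3) on log2(TMM-scaled CPM + 0.5) with a coefficient for every group and 12 residual degrees of freedom. Calls required a Benjamini-Hochberg adjusted p under 0.05 over all 20668 genes, in each of 32 comparisons. The procedure was tested on simulated data. Alternatives covered scaling, filter, pseudocount, edgeR and DESeq2 1.42.0 on recovered reads, GC slope, replicate block and leaving out each library. The members and gene lists were chosen with earlier results of these data known. After values or sequences were seen, 3 line comparisons and the promoter motifs other than the kappa-B consensus were added. Outside the 10 members, genes were named mostly from those called in a list (at most 4 per list and comparison) and the 3 most abundant per list. The nearest in pattern to each member were also named. Not every called or abundant gene is named. Intervals are standard errors (SE); the floor of 3 reads covers counting error only. The check of the gene by which the lines are labelled is not reported here.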

Additional observations from a re-analysis of the deposited data

How the results depend on the processing

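No alternative reversed the direction of a called member. Counts below are of the 7 tested members. Without TMM scaling, calls for the mean of lines were 2 with APR-246, 0 after irradiation and 0 with the combination, and 0 for WT against Null over treatments; without the filter they were 2, 0 and 0, and 0 for Mutant against Null over treatments. A pseudocount of 2 gave 2 calls for irradiation over the lines and 1 in WT, and one of 0.1 gave 2 for Mutant against Null over treatments. Of all 20668 genes these fits called 2668, 392 and 2438 there. DESeq2 called 3 with APR-246 in Null and 1 with the combination in Null, where 451 of 16260 and 1124 of 17462 genes were called. Over treatments it called 4, 5 and 2 for WT against Null, Mutant against Null and Mutant against WT. Of all 20668 genes it called 3326, 3262 and 2793 there. For Mutant against Null over treatments, edgeR called 2 members and 2269 genes. A fit of those lines alone called 4 members and 2377 genes.

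Same-numbered libraries deviated together, at a correlation over 0.1, in 55 of 66 pairs of groups (median 0.629, range -0.562 to 0.896). The labels do not say whether a number marks a batch or shared culture, and as the correlation was not over 0.1 in all pairs the block stayed an alternative. With the number as a replicate block, calls were 3 with APR-246 in Null, 3 for irradiation over lines, 2 in WT after irradiation, 2 for the combination over lines, 1 with the combination in WT and 1 in Null, 1 for the combination against APR-246 in WT, 1 for the WT minus Null response to the combination, 5 for Mutant against Null and 2 for Mutant against WT over treatments. With the block and GC slope together they were 4 with APR-246 in Null, 4 and 3 for irradiation and the combination over lines, 2 and 3 for irradiation in WT and Null, 2 and 2 for the combination in WT and Null, 1 and 4 for the combination against APR-246 in WT and over lines, 1 in each solvent comparison of lines, 1 for the response to the combination, and 5 and 2 over treatments. With GC slope alone they were 5 with APR-246 in Null, 5 and 4 over lines, and 2 and 3 in WT and Null after irradiation. They were 2 and 2 with the combination, 1 and 4 against APR-246, and 1 in each solvent comparison. For the response there was 1, and over treatments 6 and 2. These fits also called more of all 20668 genes. With APR-246 in Null the block called 567, block and GC slope 3321 and GC slope alone 3101, beside 27 in the main fit. In WT and Null, block and GC slope called 3874 and 4452 after irradiation and 3917 and 5584 with the combination. GC slope alone called 3724 and 4133 after irradiation and 4486 and 5083 with the combination. For the combination against APR-246 over lines these 2 fits called 3821 and 3527. Over lines GC slope alone called 7724 for irradiation and 9074 for the combination, beside 2679 and 2876. The block alone called 6774 and 6109 there, and block and GC slope 7208 and 9274. Over treatments the block called 4800 for Mutant against Null and 4753 for Mutant against WT, beside 2486 and 1995. Block and GC slope called 7130 and 6547 there, and GC slope alone 7337 and 6567. In single lines the block called 1611 in WT after irradiation, and 1703 and 2650 with the combination in WT and Null.

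Leaving out 1 library gave 1 to 4 calls with APR-246 over lines, 0 to 2 in WT, 0 to 1 for irradiation and for the combination over lines, 0 to 2 for the combination against APR-246 over lines, and 1 to 4, 0 to 1 and 1 to 2 over treatments for WT against Null, Mutant against Null and Mutant against WT; it gave 0 to 0 in the other comparisons. Over all genes the calls with APR-246 over lines ranged from 303 without the filter to 6077 with block and GC slope, beside 651, those for irradiation from 1745 to 7724 beside 2679, and those for the combination from 1861 to 9274 beside 2876. The split of higher and lower calls moved without TMM scaling to 574 and 279 with APR-246, 1965 and 665 after irradiation, and 2380 and 766 with the combination, beside 246 and 405, 1413 and 1266, and 1577 and 1299. Median centring and no TMM scaling moved the median of all genes by over 0.1 in some comparisons within or between lines, but in none of the means over lines against solvent. The cause of these shifts was not tested.

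The limits are depth and replication. CXCL2, CXCL3 and IL32 rest on 4, 6 and 5 reads in their lowest libraries, 2 libraries per group leave a median SE of 0.321 within a line, and each p53 status is 1 line.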

Other observations

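Other genes of the NF-kB lists differed between the lines in solvent. F3 (tissue factor, the starter of coagulation) was lower in Mutant than in Null by a log2 difference of -3.15 ± 0.51 (limma adjusted p = 0.00245) and lower in WT than in Null by -2.55 ± 0.51 (adjusted p = 0.0204). GADD45B was also lower in Mutant than in Null (-1.81 ± 0.35) and in WT than in Null (-1.72 ± 0.35). TLR3 was higher in Mutant than in Null (1.18 ± 0.29, adjusted p = 0.0382), and NUAK2 was lower (-1.75 ± 0.37, adjusted p = 0.0155).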
